A study of Saccharomyces cerevisiae with 27 samples.

Results

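The mRNAs of the small subunit of the mitochondrial ribosome were examined in yeast with alanyl-tRNA synthetase (AlaRS) of the wild type (WT) or with its C719A or G906D substitution, before and during heat stress. The group was chosen by name and consists of 30 of the 7122 gene IDs in the files. The 18 with bacterial homologs were MRP2 (YPR166C), MRP4 (YHL004W), MRP17 (YKL003C), MRP21 (YBL090W), MRP51 (YPL118W), MRPS5 (YBR251W), MRPS8 (YMR158W), MRPS9 (YBR146W), MRPS12 (YNR036C), MRPS16 (YPL013C), MRPS17 (YMR188C), MRPS18 (YNL306W), MRPS28 (YDR337W), RSM7 (YJR113C), RSM10 (YDR041W), RSM18 (YER050C), RSM19 (YNR037C) and NAM9 (YNL137C). The 11 particular to mitochondria were MRP1 (YDR347W), MRP10 (YDL045W-A), MRP13 (YGR084C), MRPS35 (YGR165W), RSM23 (YGL129C), RSM24 (YDR175C), RSM25 (YIL093C), RSM26 (YJR101W), RSM27 (YGR215W), RSM28 (YDR494W) and PET123 (YOR158W), and RSM22 (YKL155C) made up the 30. All 30 passed the filter on low counts, as did 6386 genes in all. The Saccharomyces cerevisiae strains derive from the haploid strain BY4741. All 3 strains lacked the chromosomal ALA1 gene, which encodes AlaRS, and lived on a single-copy plasmid with the WT or mutant gene, the mutant plasmids having replaced one with the WT gene. The C719A substitution impairs the editing function of AlaRS, which clears serine wrongly attached to tRNA(Ala), and the G906D form served in the study as the comparison with defective aminoacylation. Cells of each strain were taken at 30 °C (0 h) and then 1 h and 2 h into growth at 37 °C. This gave 9 groups of 3 replicates, or 27 libraries of poly(A) RNA. The study calls the lettered replicates biological, the labels do not say whether they were separate cultures, and p-values measure the spread between these libraries. How many clones of each strain were used is not given in the sources used here.

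The mitochondrial ribosome translates the few proteins encoded by mitochondrial DNA, which are mostly subunits of the respiratory chain and ATP synthase. In yeast, all of its proteins except Var1 are encoded in the nucleus, made in the cytosol and imported, and the small subunit holds the 15S rRNA, binds the mRNA and carries the decoding centre. Most of the small-subunit proteins have counterparts in bacteria, and the rest are particular to mitochondria and surround the bacterial core. Many of the nuclear mRNAs for this ribosome carry, in the region after the stop codon, a short motif bound by the RNA-binding protein Puf3, which controls the decay and the translation of these mRNAs according to carbon source.

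That motif, written here as TGTANATA with N standing for any base, was searched on the coding strand in the 300 bases after each stop codon in the R64 assembly. It was found in 29 of the 30 genes (96.7%), against 972 of all 6002 nuclear protein-coding genes (16.2%), and RSM22 was the gene without a match. The 29 genes held 36 matches, the first one lying 8 to 139 bases after the stop codon, and 6 genes had more than 1. The sites of 9 genes that the results below turn on, of which MRP1 has a pair, are shown with the motif in capitals, each read 5′ to 3′ along the gene's own strand.
MRP1 (chrIV:1170183-1170212, plus strand): ttggtagtctcTGTAAATAtataaagtcaa
MRP1, next site (chrIV:1170215-1170244, plus strand): tattcgtaatgTGTATATAacgtggtctta
RSM26 (chrX:619111-619140, plus strand): atcttatatacTGTAAATAgttttatttta
NAM9 (chrXIV:368522-368551, minus strand): tctctttacacTGTAAATAtttaatttttt
RSM10 (chrIV:540462-540491, plus strand): gatttcgtactTGTAAATAaaataggtgaa
PET123 (chrXV:633220-633249, plus strand): aaatatgcccaTGTATATAcgtcacttgcg
RSM7 (chrX:638192-638221, minus strand): gtaaacttgccTGTACATAaacacatttat
MRP13 (chrVII:647064-647093, minus strand): ataaacataccTGTAAATActaaaaagtag
MRPS35 (chrVII:830212-830241, plus strand): ccattattactTGTACATAaaatattctac
RSM27 (chrVII:922547-922576, plus strand): aactcatttcaTGTACATAcaaaatcaaaa

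The base at N was A in 20 of the 36 matches, T in 8, C in 7 and G in 1. A cytosine stood 2 bases before the motif in 21 of the 36, as it does in the RSM10, PET123, RSM7, MRP13, MRPS35 and RSM27 sites above. No such concentration was seen for the motifs searched on both strands of the promoter, from 250 bases before to 50 bases after the start codon. CCAAT, the core bound by the Hap2/3/4/5 complex that activates respiratory genes, was present in 14 of the 30 genes (46.7%) and in 43.3% of all nuclear genes. AATTTT, the core of an element found before many ribosome biogenesis genes, was present in 11 (36.7%) and in 51.7%. A match is a stretch of letters and was not tested for binding.

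**Figure D1:**
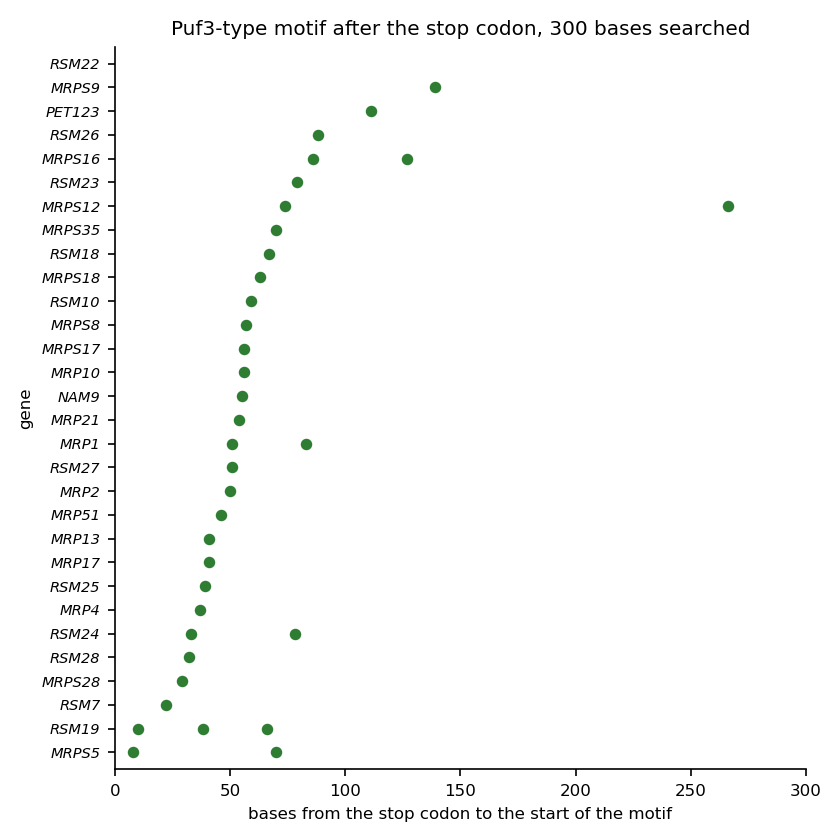
Distance in bases from the stop codon (x axis, 0 to 300) to each match of TGTANATA for the 30 small-subunit genes (y axis, ordered by their first match). In 29 genes the first match lies between 8 and 139 bases, MRPS12 has a further match at 266 bases, and RSM22 has none.

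Libraries held 14471528 to 23057641 counts (median 17523615), and a small-subunit gene had between 239 and 8075 counts in any library. Levels of a gene across libraries are given as CPM (counts scaled to a common library total) after TMM scaling, a method that sets a typical gene to no change. Differences are log2 fold changes with standard errors (SE) and adjusted p-values, obtained in edgeR by the quasi-likelihood test and adjusted by Benjamini-Hochberg over all 6386 genes. A gene was called lower or higher at an adjusted p under 0.05, with no minimum fold. With 3 libraries a group, exact permutation gives no p under 0.1, and the p-values of single genes therefore borrow the spread of the whole table. The 28 gene IDs of the mitochondrial genome were almost empty, with 27 at 0 in every library, among them VAR1, so the mitochondrially encoded small-subunit protein was not analysed here. In bulk RNA, fewer cells with an mRNA and less of that mRNA per cell cannot be told apart.

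The 30 mRNAs spanned a wide range of levels. Per length, in FPKM (fragments scaled to gene length and library total) averaged over all 27 libraries, the highest were MRPS12 (416.4), MRPS16 (414.5) and RSM10 (325.5). MRPS12 and MRPS16 encode the homologs of bacterial S12, a protein of the decoding centre, and S16, and RSM10 the homolog of S10. The lowest were RSM22 (39.45), MRPS8 (53.8) and RSM23 (68.03). RSM22 encodes a methyltransferase-like protein associated with the small subunit, MRPS8 the homolog of S8, and RSM23 the yeast counterpart of the human GTP-binding protein DAP3. RSM22 was the lowest of the 30 in all 9 groups. The FPKM of MRPS12 and MRPS16 over the 27 libraries had SDs of 93.1 and 105, which include the differences between strains and times. In the WT at 0 h their means were 515.3 ± 50.6 and 579.2 ± 108 (SD, n = 3). At 2 h in the WT they were 532.3 ± 39 and 426.8 ± 31 (SD, n = 3). The difference between these genes was not tested. The proteins are thought to be present in about equal numbers per subunit, but before heat stress the mean FPKM of the highest gene in the WT (MRPS16, 579.2 ± 108, SD, n = 3) was 19.9 times that of RSM22 (29.03 ± 3.3, SD, n = 3). After 2 h at 37 °C the corresponding ratio, now between RSM10 and RSM22, was 9.32 in the WT, 10.3 in the C719A strain and 8.92 (MRPS16 over RSM22) in the G906D strain.

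Compared with the WT, the C719A strain had lower small-subunit mRNAs once the cells were at 37 °C. After 2 h, 29 of the 30 were lower and none was higher, with a median log2 fold change of -0.96, while 28.9% of all tested genes were lower and 27.5% higher, and the median of all tested genes was -0.03. After 1 h, 29 were lower and 1, RSM7, was higher (median -0.71), with 18.4% of all tested genes lower and 17.3% higher. Before heat stress, 8 were lower and 2 higher (median -0.04), when 26.7% of all tested genes were lower and 27% higher, and a fit of only the groups compared called 5 genes in place of 10. The counts after 1 h and 2 h were the same with library size alone or with RLE size factors in place of TMM, except that RSM7 was no longer called at 1 h with library size alone.

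The mRNA with the lowest value at 2 h was RSM26, which encodes a mitochondria-specific protein related in sequence to manganese superoxide dismutase. Its level was 95.36, 98.09 and 95.56 CPM in the 3 WT libraries at 2 h and 41.8, 40.26 and 41.44 CPM in the 3 C719A libraries. All C719A values thus lay far below all WT values, and the log2 fold change was -1.23 (SE 0.0764, 2.34-fold lower, adjusted p = 3.51e-12, edgeR with Benjamini-Hochberg adjustment). RSM26 was also the mRNA with the lowest log2 fold change at 0 h (-0.46) and at 1 h (-1.15). At 0 h it stood at 81.75, 68.71 and 66.8 CPM in the WT and at 55.41, 48.94 and 53.86 CPM in the C719A strain, so its groups were already apart before the shift.

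MRP1, the second small-subunit gene of the superoxide dismutase-related kind, showed no such difference before heat stress. The WT libraries at 0 h had 101.9, 116.2 and 99.56 CPM, and the C719A libraries had 104.1, 98.94 and 98.75 CPM, so the groups overlapped. At 1 h the values were 155.8, 159.8 and 178.3 CPM in the WT and 92.92, 102.7 and 84.13 CPM in the C719A strain. At 2 h they were 208.9, 181.7 and 193.3 CPM in the WT and 86.95, 82.7 and 81.64 CPM in the C719A strain. Every heated WT library thus stood above the WT at 0 h, no C719A library at 2 h did so, and the log2 fold change between the strains at 2 h was -1.22 (SE 0.0765, adjusted p = 4.23e-12, edgeR with Benjamini-Hochberg adjustment). MRPS35, a mitochondria-specific protein gene on chromosome VII, had 124.6, 119.3 and 126.1 CPM in the WT and 57.36, 52.17 and 51.07 CPM in the C719A strain at 2 h, without overlap (log2 fold change -1.20, SE 0.0735).

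The smallest falls that passed the test at 2 h were those of RSM18 and MRP2, the homologs of bacterial S18 and S14. RSM18 had 87.72, 87.1 and 89.6 CPM in the WT and 57.42, 53.83 and 59.79 CPM in the C719A strain (log2 fold change -0.63, SE 0.103). MRP2 had 34.63, 31.5 and 33.27 CPM in the WT and 21.49, 19.76 and 21.06 CPM in the C719A strain (-0.67, SE 0.13). Neither pair of groups overlapped.

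RSM7, which encodes the homolog of bacterial S7, a protein of the head of the small subunit, was the exception. At 2 h the WT libraries had 138.6, 118.3 and 124.8 CPM and the C719A libraries 126, 120.7 and 105.6 CPM. These groups overlapped, and the log2 fold change was -0.12 (95% interval -0.37 to 0.14, adjusted p = 0.468, edgeR with Benjamini-Hochberg adjustment). At 1 h RSM7 was higher in the C719A strain, with 146.1, 141.5 and 134.4 CPM against 108.9, 107.7 and 117.6 CPM in the WT. That difference (0.34) did not overlap between groups but lost its call when any 1 of these 6 libraries was left out. At 0 h the C719A libraries had 96.83, 106.2 and 87.54 CPM and the WT libraries 57.58, 95.05 and 57.08 CPM, a difference of 0.47 in which WT library B lay among the C719A values. The name of YJR114W, which adjoins RSM7, places it on the opposite strand, and the library preparation described does not record strand. YJR114W, chosen here after its values were seen, had 4.373, 15.96 and 6.638 CPM in the WT at 0 h, again highest in library B, and 29.22, 23.11 and 24.95 CPM in the WT at 2 h. Whether reads of this gene enter the RSM7 counts was not tested. The other gene that was higher in the C719A strain at 0 h, MRP21, had 55.93, 48.27 and 53.86 CPM against 47.44, 45.34 and 42.2 CPM in the WT (0.23). MRP21 encodes the homolog of bacterial S21, and this call was lost without WT library B or C or without C719A library A or C. The MRP21 call was also lost with library size alone (0.18), with TMM without cytosolic ribosomal protein genes and with no filter beyond 1 count. A replicate block over all strains, a fit of only the groups compared and both FPKM fits lost it too, while RLE size factors and DESeq2 kept it.

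The remaining genes followed the majority at 2 h. Among the 11 mitochondria-specific genes all were lower (median -1.02, from -1.23 to -0.86), and among the 18 with bacterial homologs 17 were lower (median -0.92, from -1.20 to -0.12). RSM22, the gene without a match to the motif, stood at -1.04, and the median of the 29 genes with a match was -0.96. The 20 genes with the TGTAAATA form had a median of -0.96, the 7 with TGTACATA a median of -0.91 and the 7 with TGTATATA a median of -1.02, and a gene with several sites counts in each form it holds. The fold changes of the 30 genes at 2 h had an SD of 0.233, against 0.712 for all genes tested. These sets were not matched for counts. Each of the 30 had at least 239 counts in every library, while only 5906 genes had at least 10. RSM19, the homolog of bacterial S19, had 105.3, 99.23 and 107.4 CPM in the WT, 46.5, 43.22 and 46.04 CPM in the C719A strain and 99.29, 89.18 and 109.3 CPM in the G906D strain at 2 h, so it stood apart from the WT in the C719A strain (-1.20) and overlapped it in the G906D strain (-0.07, not past the threshold). MRP51, whose product acts in the translation of mitochondrial COX mRNAs, had 200.6, 160.1 and 178.4 CPM in the WT, 103.7, 106.9 and 101.1 CPM in the C719A strain and 133.1, 139.9 and 132.4 CPM in the G906D strain (-0.79 and -0.41). All 3 of its groups were apart. Of the genes with no library values at 2 h here, MRPS9, RSM25, RSM28, RSM24 and MRP4 were lower in both mutants at 2 h, and MRPS18 was lower in the C719A strain (-0.72) without passing the test in the G906D strain (-0.10). The call of MRP4 in the G906D strain was lost in the fit without the genes of chromosome VII (-0.14).

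**Figure D2:**
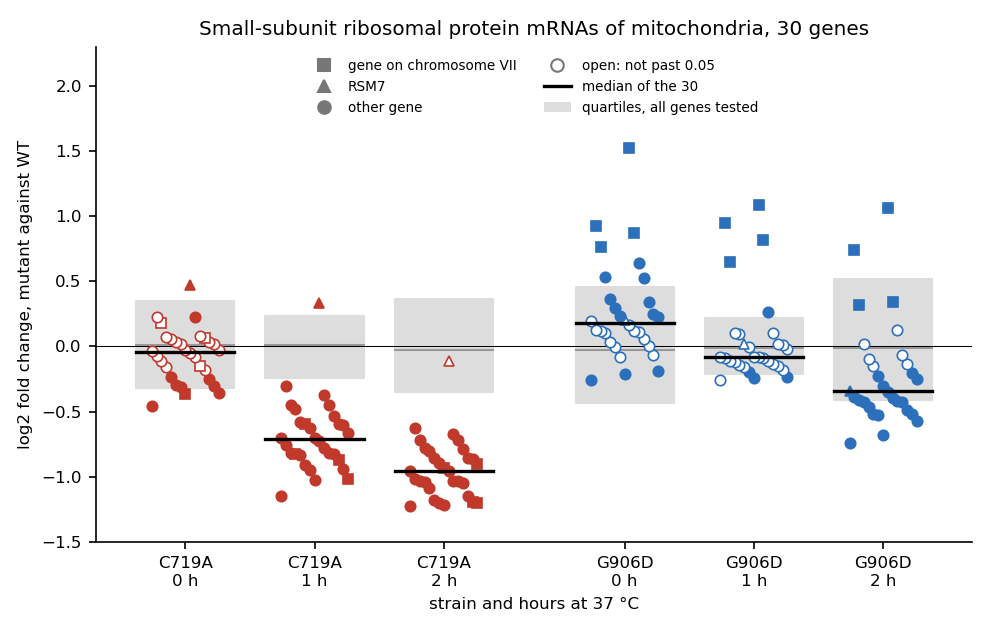
log2 fold change of each of the 30 genes (y axis) in the C719A and G906D strains against the WT at 0, 1 and 2 h at 37 °C (x axis), each from 3 libraries per group. Filled symbols passed an adjusted p of 0.05, squares are the 4 genes on chromosome VII, the triangle is RSM7, black lines are medians of the 30 and grey boxes the quartiles of all genes tested. In the C719A strain the median moves from -0.04 to -0.71 and -0.96, and in the G906D strain the 4 squares stay above 0 while the median ends at -0.34.

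The G906D strain differed from the WT in a different way. Before heat stress, 13 of the 30 mRNAs were higher and 3 lower (median 0.18), against 30.9% of all tested genes higher and 33.2% lower. The 13 include the 4 genes on chromosome VII, and among the 26 others 9 were higher (34.6%) and 3 lower (11.5%), with a median of 0.12. After 1 h, 5 were higher and 3 lower (median -0.08), against 16.3% higher and 15% lower, and the number called depended on the processing. With library size alone 4 were higher and 13 lower at 1 h (median -0.22), a fit of only the groups compared called 4 genes, and without the genes of chromosome VII 1 of the 26 others, MRP10, was called. After 2 h, 20 were lower and 4 higher (median -0.34), against 33.2% of all tested genes lower and 31.9% higher. The 4 higher mRNAs at 2 h were the 4 genes on chromosome VII, and among the 26 others 20 were lower and none was higher (median -0.39). Of these calls, those of RSM7 (-0.27), MRP4 (-0.14), MRPS12 (-0.18) and RSM22 (-0.16) were lost in the fit without the genes of chromosome VII.

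The genes MRP13, MRPS35, RSM23 and RSM27 lie on chromosome VII, and in the G906D strain they were higher than in the WT at each time. RSM27, a mitochondria-specific protein gene, had 46.04, 47.56 and 40.87 CPM in the WT and 132.9, 130.9 and 123.7 CPM in the G906D strain at 0 h. At 2 h it had 61.13, 56.16 and 56.44 CPM in the WT and 119.9, 115.5 and 127.2 CPM in the G906D strain. No G906D value came near a WT value at either time, with log2 fold changes of 1.53 at 0 h and 1.06 at 2 h. MRP13, another mitochondria-specific protein gene, had 113.1, 108.4 and 119.9 CPM in the WT and 185.3, 198.8 and 186.9 CPM in the G906D strain at 2 h (0.74). MRPS35 had 158.1, 157.2 and 154.2 CPM in the G906D strain at 2 h (0.34), against the WT values given above. RSM23 had 117.1, 105.8 and 116.4 CPM in the WT and 143.1, 140 and 140.1 CPM in the G906D strain (0.32). For all 4 the groups were apart at 2 h. The call for RSM23 was lost with library size alone (0.18).

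The same direction was seen along the whole chromosome. Of the 581 other tested genes assigned to chromosome VII, 478 were higher and 10 lower in the G906D strain at 2 h, with a median of 0.98. The median was 0.92 at 0 h and 0.97 at 1 h. Over these genes the C719A median was 0.04, 0.02 and 0.01 at the 3 times. DNA copy number was not measured, and the part of the chromosome in the values of the 4 small-subunit genes was not tested. The 4 small-subunit genes had medians of 0.90, 0.88 and 0.54 at 0, 1 and 2 h.

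The mRNAs with the lowest values in the G906D strain at 2 h were NAM9, RSM10 and PET123. NAM9, which encodes the homolog of bacterial S4 and was first known from suppressor mutations of mitochondrial stop codons, had 212.1, 189.3 and 200 CPM in the WT and 121.5, 118.8 and 119.6 CPM in the G906D strain. The log2 fold change was -0.74 (SE 0.0763, 1.67-fold lower, adjusted p = 1.26e-08, edgeR with Benjamini-Hochberg adjustment). RSM10 had 295.4, 308.5 and 319.4 CPM in the WT and 191.5, 190.1 and 193.4 CPM in the G906D strain (-0.68, SE 0.0952). PET123, a mitochondria-specific protein that interacts with activators of the translation of mitochondrial mRNAs, had 182.7, 157.5 and 165 CPM in the WT and 114.5, 109.5 and 115.6 CPM in the G906D strain (-0.57, SE 0.103). In all 3 genes the groups were apart. In the C719A strain at 2 h, NAM9 had 100.5, 108.4 and 101 CPM, RSM10 174.4, 160.3 and 162.9 CPM, and PET123 82.78, 85.97 and 77.96 CPM, so the libraries of each stood below its G906D libraries. In the test between the mutants PET123 was lower in the C719A strain (-0.46), RSM10 did not pass (-0.21, adjusted p = 0.0857, edgeR with Benjamini-Hochberg adjustment), and NAM9 passed (-0.22) but lost its call with library size alone (-0.08) and without C719A library A or C or any 1 of the G906D libraries at 2 h.

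Apart from the genes on chromosome VII, 9 mRNAs were higher (34.6%) and 3 lower (11.5%) in the G906D strain at 0 h, against 30.9% and 33.2% of all tested genes. After 1 h, 1 was higher (3.8%) and 3 lower (11.5%), against 16.3% and 15% of all tested genes. At 1 h the 3 that were lower were NAM9 (-0.24), MRP1 (-0.23) and MRPS5 (-0.20), and MRP10 was higher (0.27). MRP10 encodes a small twin-cysteine protein, with 68.1, 66.84 and 79.04 CPM in the WT and 91.22, 82.92 and 83.18 CPM in the G906D strain, and its call was lost without WT library B, without G906D library A and with library size alone (0.13). MRPS5, the homolog of bacterial S5, had 105.6, 100.5 and 106.4 CPM in the WT and 99.24, 86.83 and 86.45 CPM in the G906D strain, groups that were apart by a narrow margin, and its call was lost without WT library A or C or without G906D library B or C. That of MRP1 was lost without WT library C, and that of NAM9 without WT library C or G906D library A. Without WT library C at 1 h, 5 genes in place of 8 were called. At 0 h the 3 that were lower were PET123 (-0.26), NAM9 (-0.21) and RSM24 (-0.19), and none kept its call without WT library C. PET123 also lost it without WT library B or G906D library A or B, NAM9 without G906D library B and RSM24 without G906D library A. PET123 had 54.3, 78.81 and 73.08 CPM in the WT and 55.67, 52.92 and 64.18 CPM in the G906D strain at 0 h, and these groups overlapped. RSM24 had 90.56, 92.69 and 101.5 CPM in the WT and 79.19, 84.25 and 86.49 CPM in the G906D strain at 0 h, groups that were apart.

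The comparisons of the G906D strain with the WT depended on the scaling at each time. Scaling by library size alone shifted the median of all tested genes by -0.37 and that of the 30 genes to -0.16, with 5 higher and 13 lower, so that relative to all genes the 30 stood at 0.21. At 1 h it shifted all genes by -0.15 and left the 30 at -0.07 relative to them. At 2 h the same change of scaling moved all genes by -0.15 and left the 30 at -0.33 relative to them, with 23 lower and 3 higher. The counts called with library size alone include the shift of all genes, and no share of all genes is set beside them.

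Compared with the G906D strain, the C719A strain had lower small-subunit mRNAs at all 3 times. At 2 h, 28 of the 30 were lower and none higher (median -0.65), with 20.9% of all tested genes lower and 18.6% higher. At 1 h, 29 were lower and none higher (median -0.61), with 19.4% lower and 17.9% higher over all tested genes. At 0 h, 17 were lower and none higher (median -0.26), with 20.2% lower and 21.6% higher over all tested genes, shares that come from the TMM fit. But with library size alone 4 were lower and 8 higher (median 0.03, or -0.27 relative to all genes). These last counts include the shift of all genes (median 0.30), and no share of all genes is set beside them. Apart from the 4 genes on chromosome VII, whose median was -1.61 at 2 h, the 26 others had a median of -0.59 and 24 were lower. The lowest value at 2 h was that of RSM27 (-1.97), and the highest was that of RSM7 (0.22, not past the threshold).

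**Figure D3:**
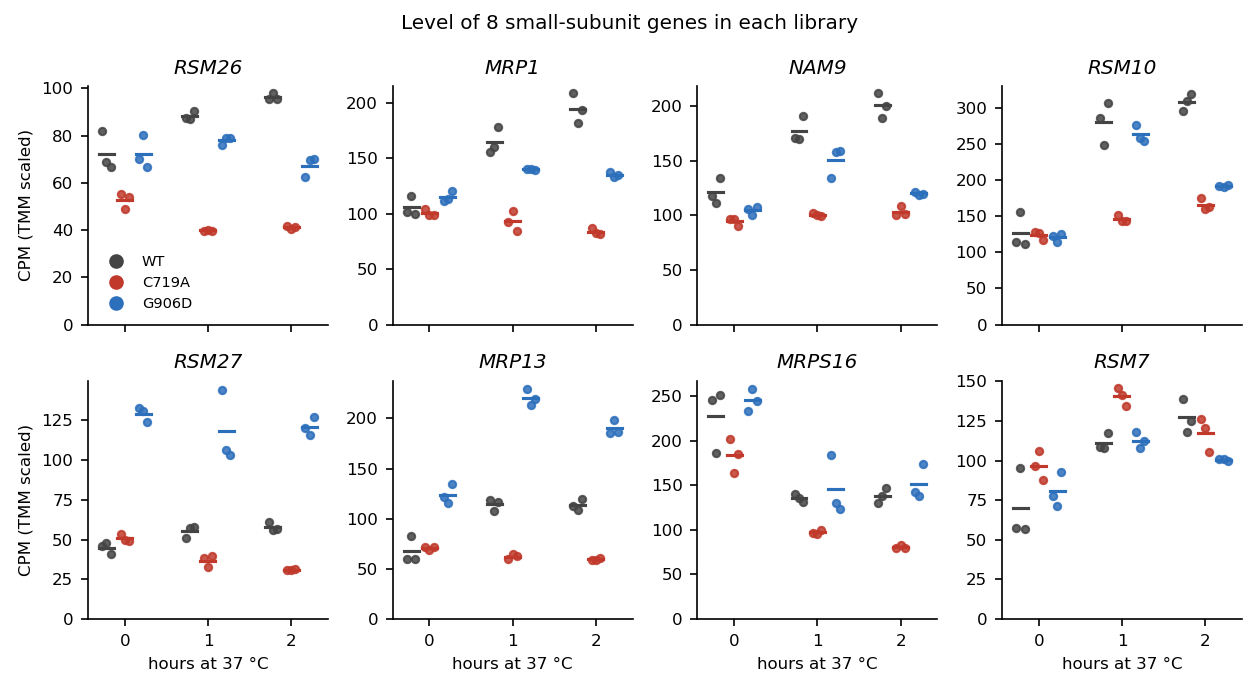
Level in CPM after TMM scaling (y axis, from 0) of 8 small-subunit genes in each library at 0, 1 and 2 h at 37 °C (x axis). Points are single libraries and bars are means of 3. RSM26, MRP1, NAM9 and RSM10 are lowest in the C719A strain at 2 h, RSM27 and MRP13 on chromosome VII are highest in the G906D strain at every time, MRPS16 is lower at 2 h than at 0 h in every strain, and RSM7 overlaps between the WT and the C719A strain at 2 h.

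The strains also differed in how these mRNAs changed over the 2 h at 37 °C. In the WT, 25 of the 30 rose and 3 fell (median 0.59), against 35.7% of all tested genes that rose and 33.9% that fell. Of the 30, 2 rose and 20 fell in the C719A strain (median -0.32), against 34.8% and 32.3%. In the G906D strain, 13 rose and 7 fell (median 0.08), against 35% and 32%. As a share of all counts, the 30 genes made up 0.249% ± 0.0046 in the WT at 0 h, 0.392% ± 0.0276 at 1 h and 0.433% ± 0.00826 at 2 h (SD, n = 3). The C719A share was 0.226% ± 0.00456, 0.234% ± 0.00514 and 0.227% ± 0.00452, with every library between 0.221% and 0.24%. In the G906D strain it was 0.233% ± 0.00781, 0.372% ± 0.0147 and 0.332% ± 0.00174, which at 2 h lay between the other strains without overlap.

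PET123 and RSM10 had the largest rises in the WT. PET123 went from 54.3, 78.81 and 73.08 CPM at 0 h to 182.7, 157.5 and 165 CPM at 2 h in the WT (log2 fold change 1.29, SE 0.105), and it also rose in the C719A strain (0.42) and the G906D strain (0.98). RSM10 rose by 1.28 in the WT, by 0.42 in the C719A strain and by 0.67 in the G906D strain. These 2 genes were the only ones of the 30 called higher over the 2 h in the C719A strain. Other rises in the WT included those of MRPS17 (0.92), MRP1 (0.88) and MRP17 (0.69), and MRPS17 and MRP17 encode the homologs of bacterial S17 and S6.

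The 3 genes that fell in the WT were MRPS16, MRP2 and MRPS12. MRPS16 had 245.6, 186.1 and 251.4 CPM at 0 h and 130.5, 137.8 and 146.5 CPM at 2 h in the WT (-0.72). It fell further in the C719A strain, from 202.2, 163.2 and 184.8 CPM to 79.43, 82.75 and 79.92 CPM (-1.18). G906D libraries went from 233.6, 258.3 and 243.8 CPM to 142.2, 137.5 and 173.3 CPM (-0.70). With library size alone the values were -0.44, -0.86 and -0.22, and the last no longer passed the test. MRP2 stood at -0.32 in the WT and at -0.04, no longer past the threshold, with library size alone, and its call was lost without WT library A or B at 0 h or WT library B or C at 2 h. MRPS12 had 254.7, 239.5 and 274.4 CPM at 0 h and 241.4, 201.4 and 211.4 CPM at 2 h in the WT (-0.23), groups that overlapped. With library size alone its change was 0.05, and its call was lost without WT library A or C at 0 h or WT library B or C at 2 h. MRPS12 in the C719A strain went from 246.3, 216.4 and 216 CPM to 113, 97.99 and 106.5 CPM (-1.10). RSM22, the least abundant mRNA, had 60.01, 53.55 and 63.23 CPM at 0 h and 95.61, 106.2 and 103.7 CPM at 2 h in the WT (0.79), and 56, 53.64 and 53.73 CPM and then 53.42, 47.8 and 47.7 CPM in the C719A strain. MRPS8, the next above it, had 36.71, 32.68 and 35.57 CPM in the WT at 2 h and 16.56, 15.55 and 15.22 CPM in the C719A strain, which did not overlap.

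**Figure D4:**
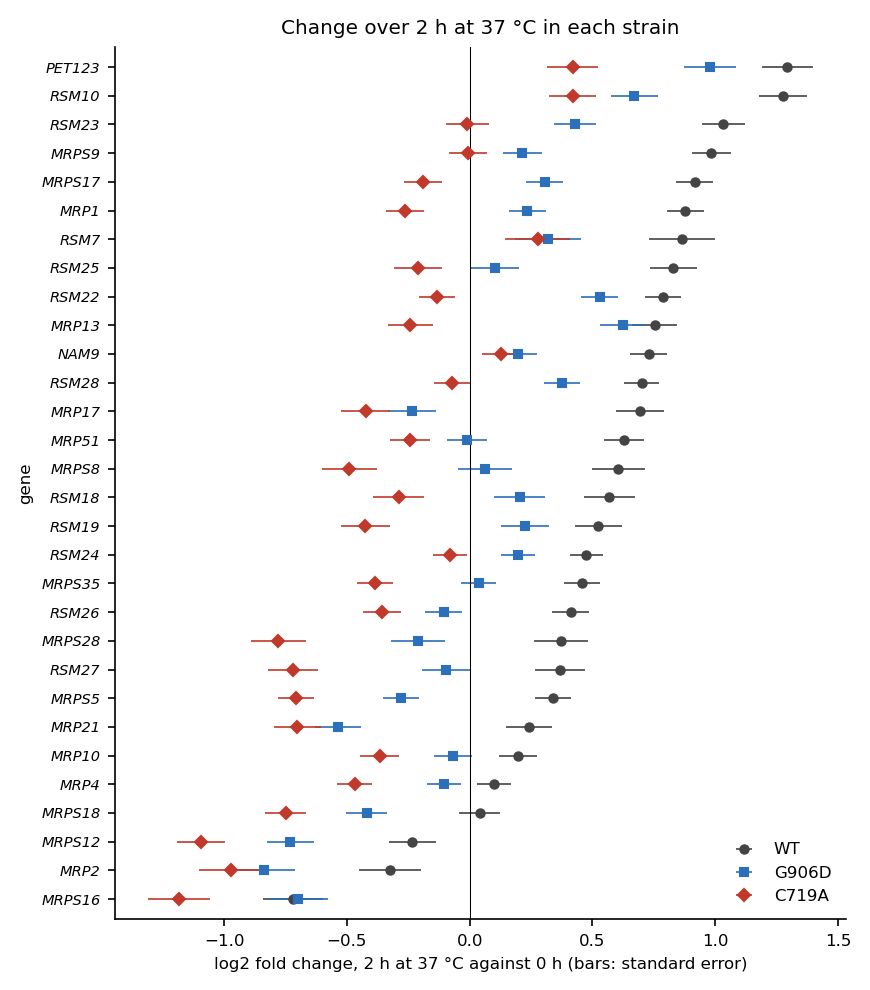
log2 fold change between 2 h at 37 °C and 0 h (x axis, with standard errors from the model) of the 30 genes (y axis, ordered by the WT value) in the WT, C719A and G906D strains, 3 libraries per group. The C719A points lie to the left of the WT points for all 30 genes, with medians of -0.32 and 0.59, and the G906D median is 0.08.

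The changes within a strain moved with the scaling. The 56 cytosolic small-subunit mRNAs fell in every strain over the 2 h (medians -2.09 in the WT, -1.44 with C719A and -1.70 with G906D), and whether they account for it was not tested. Scaling by library size alone shifted the median of all tested genes by 0.30 (WT), 0.36 (C719A) and 0.52 (G906D). With it the 30 genes had medians of 0.88, 0.002 and 0.56, or 0.58, -0.35 and 0.05 relative to all genes. Then 9 rose and 8 fell in C719A cells, 25 rose and 2 fell in G906D cells, and 27 rose and 1 fell in WT cells. These counts include the shift of all tested genes, and no share of all genes called with this scaling is set beside them.

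The difference between these changes was tested as an interaction and was less dependent on the scaling for the C719A strain. The change over 2 h was lower in the C719A strain than in the WT for all 30 genes, each past the threshold (median difference -0.87, from -1.15 for MRPS28 to -0.46 for MRPS16), against 18.2% of all tested genes lower and 18.6% higher. MRPS28, the homolog of bacterial S15, had 71.31, 53.42 and 66.87 CPM at 0 h and 90.96, 77.49 and 79.77 CPM at 2 h in the WT. In the C719A strain MRPS28 went from 70.11, 59.02 and 59.17 CPM to 37.81, 34.8 and 37.14 CPM, below all of its values at 0 h. Its difference was -1.15 (SE 0.158, adjusted p = 5.64e-06, edgeR with Benjamini-Hochberg adjustment). With library size alone 29 of the 30 were called, and leaving out single libraries gave 28 to 30. No share of all genes is set beside these counts. For MRPS16 the call was lost without WT library B or C719A library A or C at 0 h, without WT library B or C at 2 h, and without any 1 of the C719A libraries at 2 h. That of RSM7 was lost without WT library A or C at 0 h or without C719A library C at 2 h.

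For the G906D strain the change over 2 h was lower than in the WT for 22 of the 30 genes and higher for none (median difference -0.52), against 10.6% of all tested genes lower and 12.7% higher. The largest difference was that of MRP17 (-0.93), with 54.42, 45.27 and 41.57 CPM at 0 h and 82.97, 68.51 and 77.2 CPM at 2 h in the WT, and 71.56, 62.18 and 70.27 CPM and then 62.92, 55.25 and 55.02 CPM in the G906D strain. On chromosome VII, where each strain is set against its own 0 h libraries, the 4 genes had a median difference of -0.44 and 3 were called, while the 581 other genes of that chromosome had a median of 0.07. With library size alone 12 genes were called in place of 22 (median -0.32, or -0.56 relative to all genes). That count includes the shift of all genes, and no share of all genes is set beside it. Both interactions share the WT libraries, so they are not independent of each other.

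The rest of the machinery of mitochondrial translation was described from lists written with earlier results of these data known. Over all tested genes at 2 h, 28.9% were lower and 27.5% higher in the C719A strain, and 33.2% were lower and 31.9% higher in the G906D strain. The 44 large-subunit protein genes had a median of -0.99 in the C719A strain at 2 h, with 43 lower, and -0.30 in the G906D strain, with 27 lower and 2 higher. All 44 held TGTANATA after the stop codon. The 4 small-subunit genes of later naming, SWS2, FYV4, QRI5 and EHD3, were all lower in the C719A strain at 2 h (median -0.84). QRI5, also called COX24 and needed for the processing and translation of COX1 mRNA, had 113.9, 94.94 and 98.7 CPM in the WT and 42.21, 42.49 and 41.56 CPM in the C719A strain (-1.28). SWS2, the homolog of bacterial S13, stood at -0.82, FYV4 at -0.86 and EHD3, an enzyme of valine breakdown also found with the small subunit, at -0.49. In the G906D strain SWS2 (-0.43), QRI5 (-0.36) and EHD3 (-0.16) were lower, and FYV4 was at -0.14 without passing the test.

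The translation factors and activators were also examined, again beside 28.9% of all tested genes lower and 27.5% higher in the C719A strain at 2 h. All 9 mitochondrial translation factors were lower in the C719A strain at 2 h (median -1.06), and in the G906D strain 7 were lower and 1, MRF1 on chromosome VII, was higher (median -0.71). TUF1, the mitochondrial elongation factor Tu and an example chosen after its values were seen, had 485.2, 430.5 and 449.5 CPM in the WT, 215, 201.9 and 194 CPM in the C719A strain and 281.9, 287.5 and 289.4 CPM in the G906D strain, with no overlap between any of the 3. MEF1, an elongation factor G, had the lowest value of the list in the C719A strain (-1.90), and IFM1, initiation factor 2, in the G906D strain (-1.11). Of 17 translational activators and membrane insertion genes, 14 were lower and 1 higher in the C719A strain, with MSS51, an activator of COX1 translation, at -1.37 and MDM38 at 0.42. Of 8 assembly and 15S rRNA factors, 5 were lower and none higher in the C719A strain, and 3 lower and 4 higher in the G906D strain, where 33.2% of all tested genes were lower and 31.9% higher. The 56 cytosolic small-subunit genes went the other way, all 56 being higher in both strains at 2 h (medians 1.24 and 1.32).

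Among the listed regulators, PUF3 was lower in both mutants at 2 h. It had 174.1, 155.2 and 161.9 CPM in the WT at 2 h, 103.1, 93.72 and 91.22 CPM in the C719A strain (-0.77) and 100.8, 114.4 and 101.3 CPM in the G906D strain (-0.63). PUF3 was already lower in both mutants at 0 h (-0.51 and -0.57), when the small-subunit medians were -0.04 and 0.18. Over the 2 h it rose in the WT (1.01), the C719A strain (0.75) and the G906D strain (0.94), where the small-subunit medians were 0.59, -0.32 and 0.08. HAP4, the activating subunit of the CCAAT-binding complex, was lower in the C719A strain (-0.47) and higher in the G906D strain (0.78) at 2 h, and fell by 1.99 on the log2 scale in the heated WT. HAP5 was lower in both (-0.66 and -0.30), and HAP1, HAP2, HAP3 and SFP1 did not pass the test in the C719A strain at 2 h. In the G906D strain HAP2 (0.61) and HAP3 (0.27) were higher and HAP1 (-0.33) and SFP1 (-0.52) lower, HAP2 lying on chromosome VII. Whether any of these bears on the small-subunit mRNAs was not tested.

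Values for other genes with the motif are given for comparison, and its part in the differences was not tested. The 933 other tested genes with TGTANATA after the stop codon had a median of -0.24 in the C719A strain at 2 h, against -0.96 for the small-subunit genes and -0.03 for all tested genes. Of the 933, 466 were lower (49.9%) and 192 higher (20.6%), against 28.9% and 27.5% of all tested genes. In the G906D strain at 2 h they had a median of -0.12, with 382 of the 933 lower and 277 higher. Of all tested genes, 33.2% were lower and 31.9% higher in that strain. The share of the 933 that was lower thus lay above that of all tested genes, and the share that was higher lay slightly below it. The 9 nuclear cytochrome oxidase subunits, of which 1 holds the motif, had medians of -0.12 and 0.21.

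**Figure D5:**
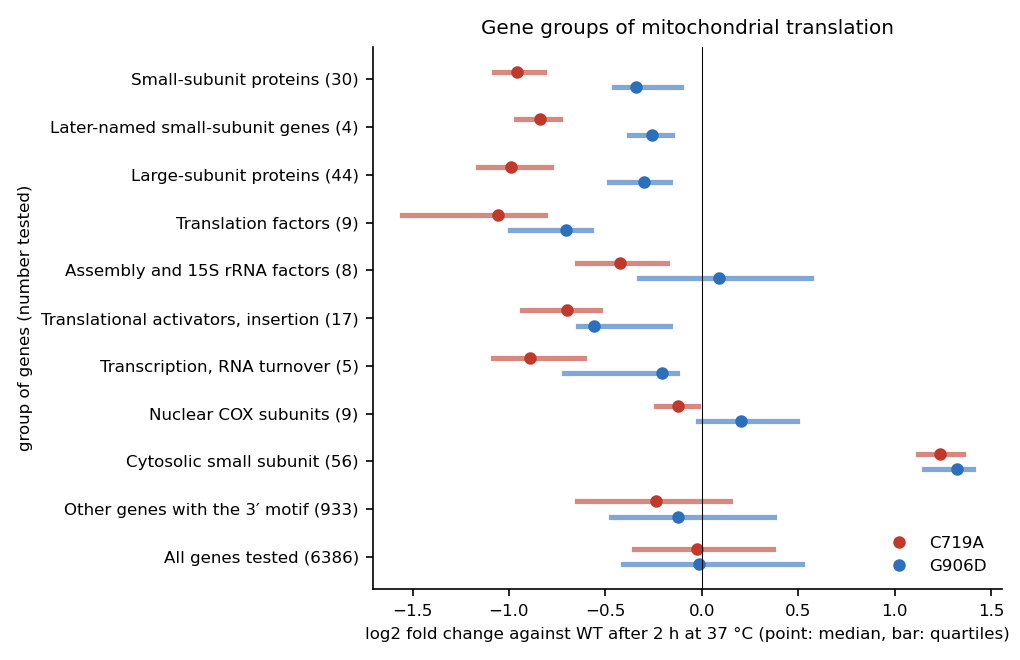
log2 fold change against the WT after 2 h at 37 °C (x axis) for groups of genes (y axis, number tested in brackets) in the C719A and G906D strains. Points are medians and bars run between the quartiles over the genes of a group. The small-subunit genes (-0.96 and -0.34) and large-subunit genes (-0.99 and -0.30) lie to the left of all tested genes in both strains, and the cytosolic small-subunit genes (1.24 and 1.32) lie to the right.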

How the data were processed

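The authors' processing, per the labels, began with RNA selected on oligo(dT) beads and libraries made with random hexamers. The submitters' processing notes name TopHat2 and Bowtie2. Their versions, the counting tool and the genome build are not given in the sources used here. The deposited files hold raw read counts and FPKM (fragments scaled to gene length and library total) per gene, computed by the authors for each library. The protocol describes no strand marking, so reads of overlapping or antisense genes cannot be told apart. Lengths implied by the deposited counts and FPKM equalled those of R64 within 0.1% for 30 of 30 small-subunit genes, and R64 was used for positions and sequences. Of the 7122 IDs, 6045 matched an R64 locus tag.

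The deposited counts were analysed with edgeR 4.0.16 in R 4.3.3 (filterByExpr, TMM, quasi-likelihood test, 9 group means fitted over 27 libraries, 14 comparisons, Benjamini-Hochberg adjustment over 6386 genes, threshold 0.05). The TMM factors ranged from 0.7194 to 1.151. FPKM was used only to compare levels between genes and in an alternative fit. Counts of replicates differed beyond sampling noise in every pair (chi-square over its degrees of freedom 7.05 to 121). The procedure was also run on simulated counts in which every gene had the same spread. How it performs on the present libraries cannot be read from that run.

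The members and gene lists were chosen with earlier results of these data known. By the naming rule, library values were given for the 3 genes with the lowest and the 3 with the highest change against the WT at 2 h in each mutant, those on chromosome VII, those that went against the majority, and the 3 with the highest and lowest levels per length. Genes outside the group were the largest called changes of each list, with all other small-subunit proteins and regulators. Library values beyond that rule (MRPS28, RSM19, MRP51, MRP17, TUF1, YJR114W) were chosen after they were seen. Alternatives were RLE size factors, library size alone, TMM without cytosolic ribosomal protein genes, at least 10 counts in every library, no filter beyond 1 count, no chromosome VII genes, DESeq2 1.42.0, limma-trend (limma 3.58.1) on log2(FPKM + 1) or log2(FPKM + 0.1), a replicate block, only the groups compared, and leaving out each library.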

Additional observations from a re-analysis of the deposited data

Results flagged for a closer look

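These results were singled out because the change over 2 h at 37 °C differed between strains in a direct test of the difference (the interaction in edgeR's quasi-likelihood test, Benjamini-Hochberg adjusted). For the C719A strain against the WT, 30 small-subunit genes passed, with a median difference of -0.874 on the log2 scale. The largest differences were those of MRPS28 (-1.152), MRP1 (-1.143), MRP17 (-1.118), MRPS17 (-1.106), MRPS8 (-1.096), RSM27 (-1.088), MRPS5 (-1.048), RSM23 (-1.044) and RSM25 (-1.041), and the smallest was that of MRPS16 (-0.464). For the G906D strain against the WT, 22 genes passed, with a median difference of -0.516, from MRP17 (-0.929) to RSM24 (-0.277). In this comparison fits that left out 1 library lost the call of RSM7 in 9 cases, RSM24 in 8, MRP2 in 7 and RSM28 in 3, and no other of the 22 calls was lost in them. Both comparisons share the WT libraries, and what lies behind the differences was not tested.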

How the results depend on the processing

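The scaling moved the most results. With library size alone, the median log2 fold change of the 30 genes in the G906D strain against the WT was -0.162 at 0 h, -0.216 at 1 h and -0.485 at 2 h, and 17 genes were called at 1 h. C719A against G906D had medians of 0.029 at 0 h and -0.519 at 2 h. The change over 2 h had a median of 0.875 (WT), 0.002 (C719A) and 0.564 (G906D), and the G906D interaction had a median of -0.319 with 12 genes called. The FPKM fits use no TMM factor and gave like values. With a pseudocount of 1 they were -0.154, -0.216 and -0.482 for G906D against the WT, 17 genes at 1 h, 0.030 and -0.514 for C719A against G906D, 0.873, 0.001 and 0.554 for the change over 2 h, and -0.319 with 12 genes for the interaction. With a pseudocount of 0.1 they were -0.156, -0.217 and -0.486, 17 genes, 0.031 and -0.517, 0.881, 0.001 and 0.562, and -0.321 with 12 genes. No share of all genes is set beside the counts called with library size alone or in the FPKM fits. MRPS12 in the heated WT reversed to 0.047 with library size alone and to 0.049 in both FPKM fits. Without chromosome VII genes, 1 gene was called in G906D against the WT at 1 h. For the same strains at 2 h, that fit lost the calls of RSM7, MRP4, MRPS12 and RSM22. Fits of only the groups compared called 5 in C719A against the WT at 0 h and 4 in G906D against the WT at 1 h. Why these moved was not tested further. Leaving out single libraries moved the median of the C719A interaction between -0.955 (without WT library B at 0 h) and -0.856, and the calls in G906D against the WT at 1 h between 5 (without WT library C) and 8. C719A against the WT kept 29 calls at 1 h and 2 h in each of those fits.

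Deviations of same-letter libraries correlated between -0.199 and 0.252, so no pairing by letter was visible in the values. These correlations cannot show whether libraries of 1 letter came from the same culture. With a replicate block over all strains, 318 of the named results were unchanged, including those called in neither fit, and 2 lost their call. In that fit 29 genes were called in C719A against the WT at both 1 h and 2 h. With a block within each strain, 29 genes were called in the C719A interaction.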
